A study of Sus scrofa with 10 samples.

Results

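Axonemal dynein heavy chains are the large motor proteins that bend motile cilia and sperm tails, and they were followed here in the ovaries of 10 gilts. The members were chosen by gene symbol, from a list of 10 named heavy chains, as the protein-coding locus with that symbol and, among several, selected on the largest summed count. Each symbol had at most 1 such locus, so the summed count chose nothing further. The rule found 8 of the 10 genes (DNAH1, DNAH2, DNAH3, DNAH5, DNAH7, DNAH9, DNAH10 and DNAH11) among 43499 loci, of which 19972 were protein-coding, and all 8 passed the filter on low values. DNAH12 and DNAH6 were matched outside the symbol rule, through a gene identifier and through the position of the RefSeq gene on the same genome build, and are counted apart. The family was proposed with results of the same treatment contrast known, so its values are a description and not independent evidence of a direction.

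The gilts were 234 days old when the ovaries were taken, after the follicles on the surface had been removed. All 10 had been fed altrenogest, a progestin that holds back oestrus: feeding began at an age of 210 days, lasted 18 days with 20 mg each day, and was followed by 2 days without it. An injection of 1000 IU of recombinant pig follicle-stimulating hormone was given to the 5 gilts of the rpFSH treatment group, and saline to the 5 control gilts. The treatment label reads untreated for the control gilts and fpFSH for the others. The comparison asked which ovarian RNAs differ after rpFSH, with 1 library for each gilt.

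A heavy chain carries the ATPase motor of a dynein arm, which walks along the neighbouring microtubule doublet of the axoneme and makes the doublets slide. Outer arms mainly set the beat frequency and inner arms the shape of the bend, and each arm type has its own heavy chains. Cells with many motile cilia are a known part of the epithelium of the oviduct, whereas most other cells carry a single immotile primary cilium without dynein arms.

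For each gilt the table gave a fragment value scaled to locus length and library size (FPKM), which is a level per length, and a whole-number count. Counts added up to between 65166187 and 75114003 per gilt in the control group and between 64873797 and 74656992 in the rpFSH treatment group. A count of 3, taken as the floor, corresponded to between 0.0399 and 0.0462 CPM (counts scaled to library size), which covers counting error only. Control replicates 2 and 5 stood apart from the other gilts. Across 15170 protein-coding loci, which are not independent replicates, the median correlation of a gilt's log2 CPM with those of the other gilts was 0.91 for control replicate 2 and 0.928 for control replicate 5, and between 0.95 and 0.97 for the others. The calls are therefore given with and without these gilts.

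In the ovaries of the rpFSH treatment group, 7 of the 8 members were called lower than in the control group, and none was called higher. A locus was called where edgeR gave an unadjusted P under 0.05 and a log2 fold change below -1 or above 1. By the same rule 2.50% of the 36339 tested loci were called lower and 1.09% higher. DNAH10 was the member that was not called. The median log2 fold change was -2.50 over the 8 members and -0.01 over all tested loci. After Benjamini-Hochberg adjustment over all tested loci, edgeR left 0 loci with an adjusted p under 0.05, with 2102 loci at an unadjusted P under 0.05, and DESeq2 on the same counts left 218. The adjusted p of the members was between 0.848 and 0.867 in edgeR. In DESeq2 it was under 0.05 for 2 of the 8 members, DNAH5 and DNAH7, and between 0.0502 and 0.747 for the others.

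The calls rested on control replicates 2 and 5. They were the 2 highest gilts for 6 of the 8 members, and control replicate 5 was the highest gilt for all of them. Among the 15170 protein-coding loci tested, 9.51% had these 2 gilts as the highest pair. Without both gilts, 0 of the 8 members were called, and the median log2 fold change of the members was -0.28. In that fit of edgeR 0 members had an unadjusted P under 0.05, their adjusted p was between 0.764 and 1.0, and 1.29% of the loci were called lower and 1.84% higher. limma-voom with sample weights, which lowers the weight of gilts that fit poorly, also called 0 of the 8 members. For none of the 8 members were the groups separate. Over all tested loci 0.526% had all 5 rpFSH gilts below all 5 control gilts, so a count of 0 in 8 sets the members little apart. In bulk ovary RNA, fewer cells of a type and less RNA per cell cannot be told apart.

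**Figure D1:**
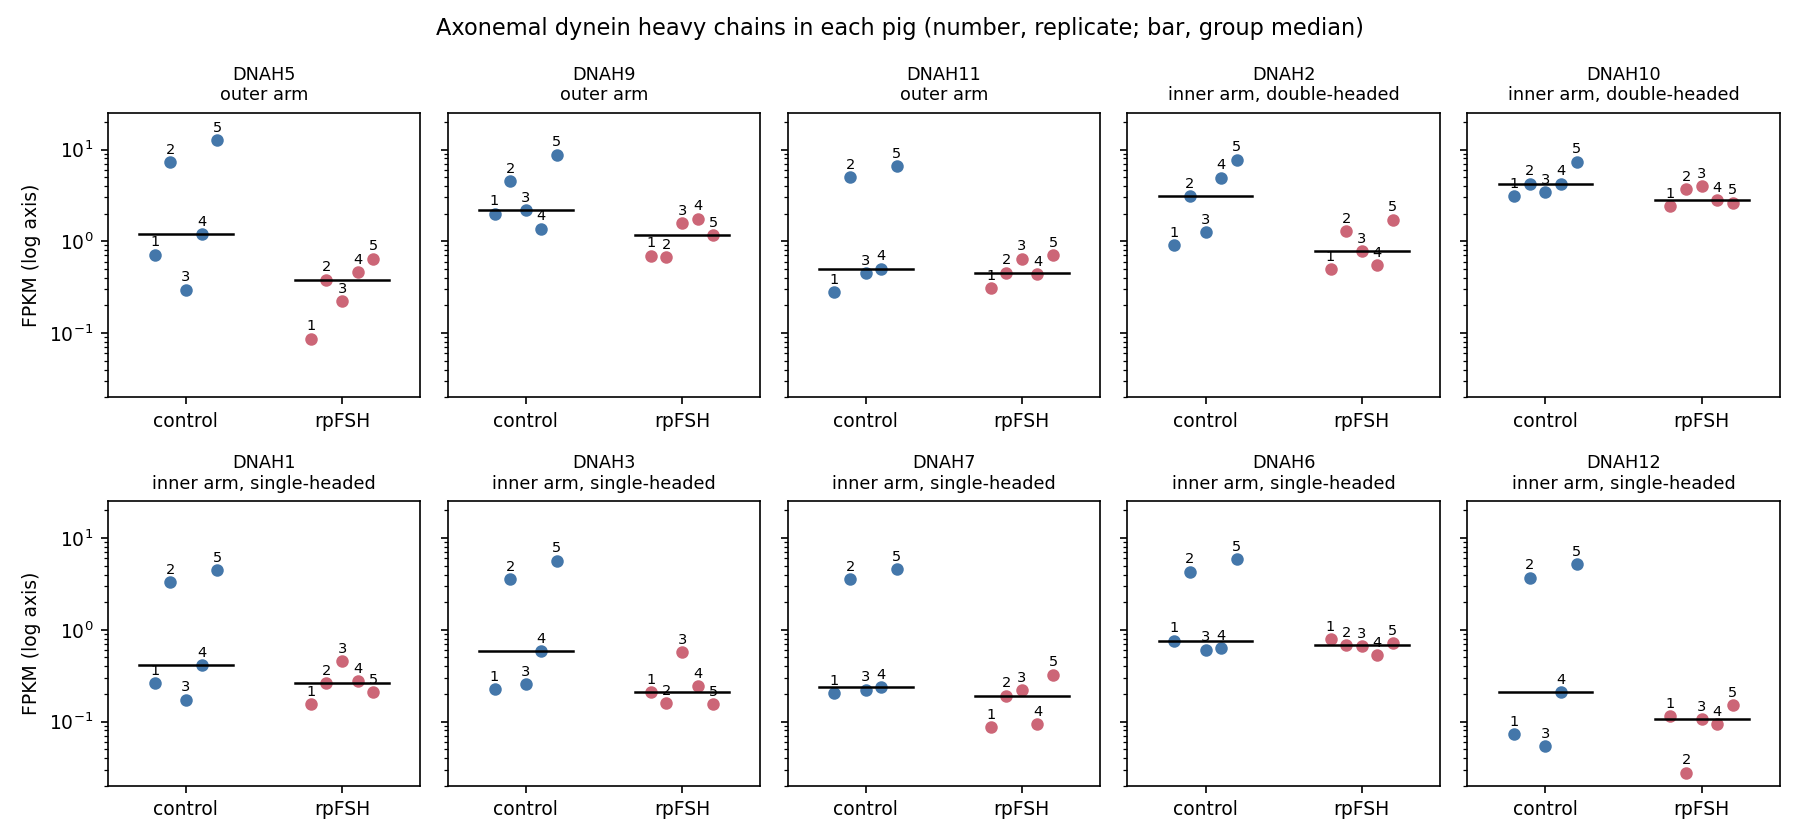
Level of each heavy chain in FPKM (log axis) in the 5 control gilts (blue) and the 5 rpFSH gilts (red), with the replicate number over each point and a bar at the group median. Control replicates 2 and 5 lie above the other gilts in 8 of the 10 panels, DNAH2 also has a high value of 4.92 in control replicate 4, and the 10 values of DNAH10 lie between 2.41 and 7.4.

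The outer arm heavy chains DNAH5, DNAH9 and DNAH11 were all called lower. DNAH5, which is present along the whole outer arm row, lies at chr16:3114391-3430254 on the minus strand of Sscrofa11.1. Its level was 0.716, 7.32, 0.297, 1.19 and 12.6 FPKM in control replicates 1 to 5, and 0.0868, 0.381, 0.222, 0.462 and 0.649 FPKM in rpFSH replicates 1 to 5. The groups overlapped, since 3 rpFSH gilts lay above the lowest control, but all 5 lay below the control median. The means were 4.42 ± 5.38 and 0.36 ± 0.217 FPKM (SD, n = 5 each), and edgeR gave a log2 fold change of -3.62 ± 1.03 (SE). Without control replicates 2 and 5 the log2 fold change was -0.97 ± 0.61 (SE, edgeR). DESeq2 gave DNAH5 an adjusted p of 0.0108, and over all alternatives its adjusted p ranged from 0.0108 to 1.0.

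DNAH9, the outer arm chain of the outer part of the cilium, lies at chr12:56045033-56373730 on the plus strand. It measured 2.0, 4.51, 2.19, 1.37 and 8.77 FPKM in control replicates 1 to 5, and 0.694, 0.675, 1.57, 1.77 and 1.16 FPKM in rpFSH replicates 1 to 5. All rpFSH gilts lay below the control median of 2.19 FPKM, and 2 of them above the lowest control. The log2 fold change in edgeR was -1.68 ± 0.52 (SE) with all gilts and -0.61 ± 0.34 (SE) without control replicates 2 and 5. Among the members it was the only one with an unadjusted P under 0.05 in limma-voom with sample weights, where its log2 fold change of -0.93 did not reach the limit.

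DNAH11, which takes the place of DNAH9 nearer the base of the cilium, lies at chr9:90423291-90767352 on the plus strand. Control replicates 1 to 5 held 0.279, 4.96, 0.451, 0.504 and 6.55 FPKM, and rpFSH replicates 1 to 5 held 0.306, 0.456, 0.649, 0.437 and 0.71 FPKM. The control replicates other than 2 and 5 lay within or below the range of the rpFSH gilts, and all 5 rpFSH gilts lay above the lowest control. With all gilts the log2 fold change was -2.33 ± 0.88 (SE, edgeR), and it turned to 0.37 ± 0.31 (SE, edgeR) without control replicates 2 and 5. DNAH11 was the member that lost its call when a single gilt was left out, with log2 fold changes of -1.90 without control replicate 2, -1.64 without control replicate 5 and -2.20 without rpFSH replicate 1 (edgeR), each with an unadjusted P above the limit.

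The inner arm with paired motor heads is built on DNAH2 and DNAH10. DNAH2 lies at chr12:52982240-53086745 on the plus strand. It measured 0.903, 3.08, 1.26, 4.92 and 7.77 FPKM in control replicates 1 to 5, and 0.496, 1.29, 0.782, 0.545 and 1.72 FPKM in rpFSH replicates 1 to 5. Control replicate 4 was higher than control replicate 2, which was seen for DNAH2 and, by a smaller margin, for DNAH10. Its log2 fold change was -1.87 ± 0.61 (SE, edgeR). Without control replicates 2 and 5 it was -1.22 ± 0.60 (SE, edgeR), which was the only value among the members still past the limit on the fold, and its unadjusted P was above the limit.

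DNAH10 lies at chr14:29095722-29249638 on the minus strand and varied least. Its level was 3.12, 4.24, 3.45, 4.26 and 7.4 FPKM in control replicates 1 to 5, and 2.41, 3.7, 3.96, 2.81 and 2.63 FPKM in rpFSH replicates 1 to 5. The highest gilt was 3.07 times the lowest, against 145 times for DNAH5. DNAH10 had a log2 fold change of -0.51 ± 0.25 (SE, edgeR), which was not called. It was called under 0 of 23 alternatives, with log2 fold changes between -0.61 and -0.15. A P above the limit does not show that its level was the same in both groups.

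The single-headed inner arm chains found by symbol were DNAH1, DNAH3 and DNAH7, and all were called lower. DNAH1 lies at chr13:34463170-34544100 on the plus strand. Its level was 0.263, 3.29, 0.173, 0.411 and 4.48 FPKM in control replicates 1 to 5, and 0.154, 0.263, 0.452, 0.274 and 0.209 FPKM in rpFSH replicates 1 to 5. Control replicate 5 was 16.7 times, and control replicate 2 was 12.2 times, the median of the 10 gilts, and the other gilts of both groups overlapped. The log2 fold change of -2.68 ± 0.90 (SE, edgeR) became 0.00 ± 0.38 (SE, edgeR) without these 2 gilts.

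DNAH3 lies at chr3:24911283-25126221 on the plus strand. Its levels were 0.225, 3.58, 0.257, 0.58 and 5.68 FPKM in control replicates 1 to 5, and 0.208, 0.158, 0.574, 0.241 and 0.154 FPKM in rpFSH replicates 1 to 5. The rpFSH replicate 3 stood above the other gilts of its group, close to control replicate 4. The log2 fold change was -2.96 ± 0.95 (SE, edgeR) with all gilts and -0.34 ± 0.50 (SE, edgeR) without control replicates 2 and 5.

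DNAH7 lies at chr15:99724637-99967366 on the minus strand. It was at 0.204, 3.55, 0.223, 0.238 and 4.61 FPKM in control replicates 1 to 5, and at 0.0864, 0.191, 0.219, 0.0941 and 0.324 FPKM in rpFSH replicates 1 to 5. The 3 remaining controls lay inside the range of the rpFSH gilts. Its log2 fold change was -3.28 ± 1.01 (SE, edgeR), and -0.22 ± 0.43 (SE, edgeR) without control replicates 2 and 5. DESeq2 gave an adjusted p of 0.0278, within a range from 0.0278 to 1.0 over all alternatives.

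The loci matched as DNAH12 and DNAH6, also single-headed inner arm chains, followed the same gilts. DNAH12, at chr13:39148454-39384352 on the minus strand, measured 0.0733, 3.71, 0.0537, 0.208 and 5.17 FPKM in control replicates 1 to 5, and 0.114, 0.0276, 0.107, 0.0939 and 0.152 FPKM in rpFSH replicates 1 to 5. It had the widest range of the 10 loci, with the highest gilt at 187 times the lowest. DNAH6, at chr3:59859518-60114275 on the minus strand, measured 0.762, 4.28, 0.608, 0.63 and 5.89 FPKM in control replicates 1 to 5, and 0.786, 0.679, 0.663, 0.527 and 0.716 FPKM in rpFSH replicates 1 to 5. Outside control replicates 2 and 5 its level varied little. Both were called lower, with log2 fold changes of -4.22 ± 1.29 for DNAH12 (SE, edgeR) and -1.85 ± 0.68 for DNAH6 (SE, edgeR), which brings the count to 9 of 10 loci. DNAH12, with an rpFSH mean of 0.0988 FPKM, passed the filter of 0.1 FPKM only through the control group. Its call, and its place in this count, describe that group's high values. Without control replicates 2 and 5 the log2 fold changes of DNAH12 and DNAH6 were -0.11 and 0.08 in edgeR. DNAH6 also lost its call without control replicate 2 alone (log2 fold change -1.51) and without control replicate 5 alone (-1.24, edgeR).

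**Figure D2:**
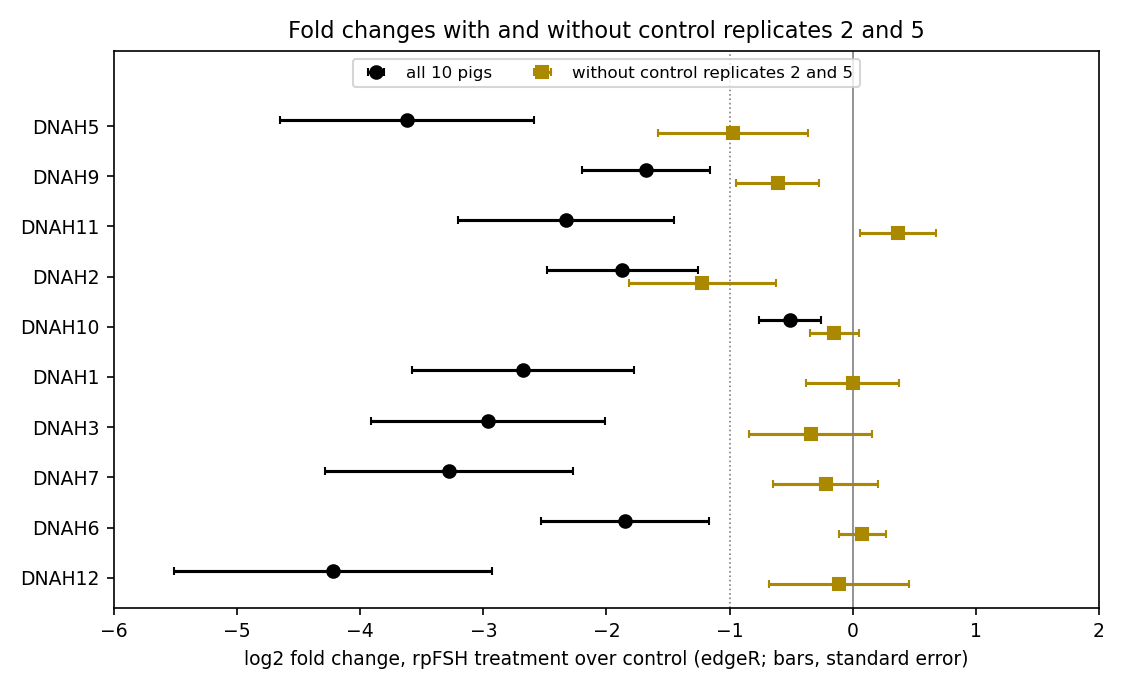
Log2 fold change of each heavy chain, rpFSH treatment over control, with its standard error, for all 10 gilts (black circles) and without control replicates 2 and 5 (ochre squares); the dotted line marks the limit of -1. The values run from -4.22 to -0.51 with all gilts and from -1.22 to 0.37 without the 2 controls.

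Summed over the 10 loci, the heavy chains came to 8.55, 42.5, 8.96, 14.3 and 68.9 FPKM in control replicates 1 to 5, and to 5.34, 7.82, 9.19, 7.25 and 8.42 FPKM in rpFSH replicates 1 to 5. The composition of the sum differed between these gilts as well. By FPKM, DNAH10 was the leading chain in 7 gilts, all 5 of the rpFSH treatment group among them, where it made up between 31.2 and 47.3% of the sum. By the same measure DNAH5 led in control replicates 2 and 5, with 17.2 and 18.2%, while DNAH10 made up 9.96 and 10.7% there. DNAH2 led in control replicate 4, with 34.4%. DNAH12 was the lowest chain in 7 gilts, at between 0.353 and 1.8% of the sum in these, and made up 8.72 and 7.51% in control replicates 2 and 5. These leads depend on the unit. By counts, which do not divide by locus length, DNAH9 led in 6 gilts (control replicates 1, 2, 3 and 5 and rpFSH replicates 4 and 5), DNAH10 in rpFSH replicates 1, 2 and 3 and DNAH2 in control replicate 4; in control replicates 2 and 5 DNAH9 made up 22.9 and 26.5% of the counts of the 10 loci and DNAH5 16.7 and 17.1%.

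**Figure D3:**
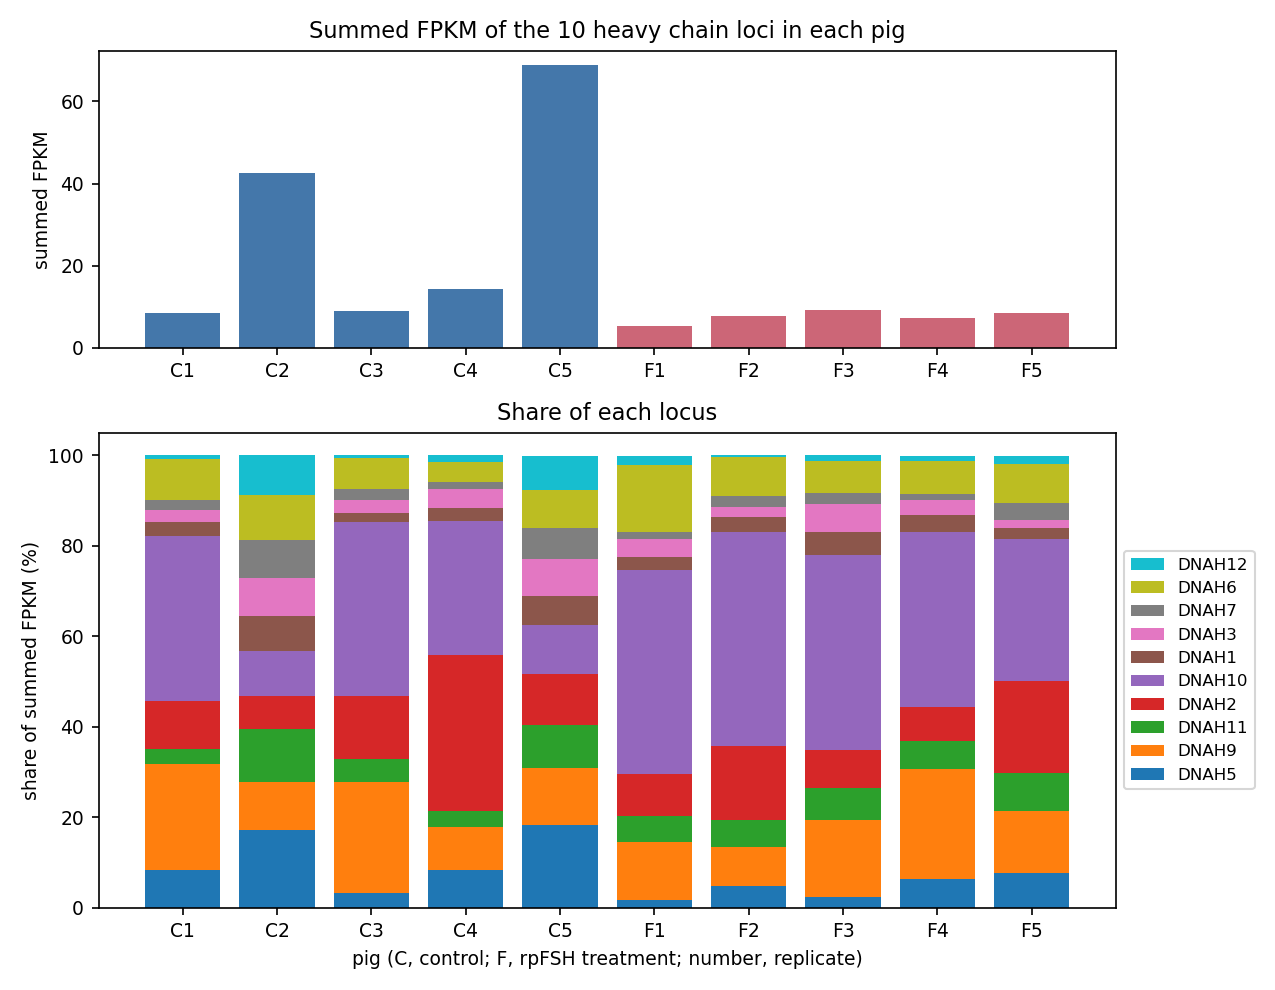
Summed FPKM of the 10 heavy chain loci in each gilt (top; C, control; F, rpFSH treatment) and the share of each locus in that sum in percent (bottom). The sums of control replicates 2 and 5, 42.5 and 68.9 FPKM, are the highest, and in these gilts the share of DNAH10 is the smallest.

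By mean FPKM over the 10 gilts the order was DNAH10 (3.8 ± 1.42), DNAH9 (2.47 ± 2.47), DNAH5 (2.39 ± 4.18), DNAH2 (2.28 ± 2.37), DNAH6 (1.55 ± 1.9), DNAH11 (1.53 ± 2.26), DNAH3 (1.17 ± 1.9), DNAH1 (0.997 ± 1.55), DNAH7 (0.974 ± 1.66) and DNAH12 (0.971 ± 1.86; SD, n = 10). No difference between neighbours in this order was larger than the spread between gilts. By FPKM, DNAH10 was above DNAH9 in 8 of 10 gilts, and DNAH2 was above DNAH5 in the gilts other than control replicates 2 and 5. By the median, DNAH5 moved from rank 3 to rank 5, behind DNAH2 and DNAH6. By the mean FPKM without control replicates 2 and 5 DNAH5 was also at rank 5. There DNAH2 moved from rank 4 to rank 2 (1.49 FPKM) and DNAH9 from rank 2 to rank 3 (1.43 FPKM). The place of DNAH9 depends on the unit: the CPM per FPKM had a median over the gilts of 42.2 for DNAH9 and between 14.7 and 19.0 for the other 9 loci. Whether locus length or the way of counting lay behind this ratio was not tested. By mean CPM the order of the first 2 turned, with DNAH9 at 104 ± 103 and DNAH10 at 66.1 ± 24.7 CPM (SD, n = 10), and DNAH10 was above DNAH9 in 4 of 10 gilts.

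DNAH17 and DNAH8, known from the outer arms of the sperm tail, and DNAH14 were at low levels. DNAH17 measured 0.244, 0.151, 0.159, 0.169 and 0.139 FPKM in control replicates 1 to 5, and 0.163, 0.289, 0.113, 0.29 and 0.213 FPKM in rpFSH replicates 1 to 5, with overlapping groups (edgeR, log2 fold change 0.34 ± 0.29 SE). DNAH8 and DNAH14 had mean levels under 0.1 FPKM and were not tested. DNAH8 was at 0.414 FPKM in control replicate 2 and at most at 0.0702 FPKM in the other gilts. Of the cytoplasmic chains, DYNC1H1 was not matched to a locus, and DYNC2H1, the motor of transport back along the cilium, measured 7.15, 6.2, 6.79, 7.63 and 9.47 FPKM in control replicates 1 to 5 and 5.2, 7.08, 7.65, 5.88 and 6.58 FPKM in rpFSH replicates 1 to 5. It was not called (edgeR, log2 fold change -0.17 ± 0.15 SE).

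Of the other subunits of the dynein arms, 5 of the 10 tested intermediate and light chains were called lower and 0 higher, with a median log2 fold change of -1.50, and of -0.41 without control replicates 2 and 5. They were DYNLRB2, DNAI4 (listed as WDR78), DNAI2, NME9 and DNAI3 (listed as WDR63). The light chain DYNLRB2 measured 1.47, 10.9, 0.815, 1.25 and 6.44 FPKM in control replicates 1 to 5, and 0.329, 0.264, 0.236, 1.02 and 0.472 FPKM in rpFSH replicates 1 to 5 (edgeR, log2 fold change -3.16 ± 0.82 SE). DYNLRB2 was lower also without control replicates 2 and 5, by a log2 fold change of -1.27 (edgeR), and was the only gene of this list called there. For DNAI2, an intermediate chain of the outer arm, control replicates 2 and 5 held 2.7 and 4.93 FPKM and no other gilt more than 0.22 FPKM (edgeR, log2 fold change -3.95 ± 1.19 SE; -0.52 without these 2 gilts). Log2 fold changes of the remaining called genes were -2.90 for DNAI4, -4.86 for NME9 and -1.26 for DNAI3 in edgeR, and -0.81, -0.28 and -0.44 without these 2 gilts. NME9, with an rpFSH mean of 0.0764 FPKM, passed the filter of 0.1 FPKM only through the control group.

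In the docking complex, which fixes the outer arm to the doublet, 2 of 4 tested genes were called lower, CALAXIN (listed as EFCAB1) and ODAD2 (listed as ARMC4). Their log2 fold changes were -2.75 ± 0.83 and -1.77 ± 0.70 (SE, edgeR), and -0.80 and -0.50 without control replicates 2 and 5, and the list had a median of -1.09, and of -0.25 without them. Of the factors that assemble dynein arms in the cytoplasm, 4 of 14 tested genes were called lower, namely DNAAF1, DAW1, DNAAF11 (listed as LRRC6) and DNAAF6 (listed as PIH1D3). DNAAF1 was at 1.87 and 2.4 FPKM in control replicates 2 and 5, between 0.744 and 0.863 FPKM in the other controls and between 0.423 and 0.684 FPKM in the rpFSH gilts, so that its groups did not overlap (edgeR, log2 fold change -1.30 ± 0.38 SE; -0.52 and not called without these 2 controls). The other called factors had log2 fold changes of -5.56 for DAW1, -3.70 for DNAAF11 and -3.25 for DNAAF6 in edgeR, and without control replicates 2 and 5 DNAAF11 was at 0.74 and DNAAF6 at -1.15. No value is given for DAW1 there, since it was at most at 0.00732 FPKM in the other controls, under the floor of 3 counts. CALAXIN, DAW1, DNAAF11 and DNAAF6 had rpFSH means of 0.0302, 0.0357, 0.0676 and 0.0311 FPKM. They passed the filter of 0.1 FPKM only through the control group, so their calls describe that group's high values. At a mean FPKM of at least 1, 1 docking gene and 1 assembly factor were called lower. Leaving out a single gilt moved the number of assembly factors called lower to between 0 (without control replicate 5) and 5. The median of the assembly factors was -0.48, nearer to that of all tested loci than was the median of the heavy chains. None of the docking or assembly genes was called by edgeR without control replicates 2 and 5, and the median of the 13 assembly factors other than DAW1 was 0.03 there.

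Of 12 tested regulators of multiciliated cells, 8 were highest in control replicates 2 and 5, while E2F4, the most abundant, was lowest there, at 2.43 and 3.32 FPKM. By the call 5 were lower (MYB, FOXJ1, GMNC, TP73 and MCIDAS) and 0 higher, between 2 and 6 were lower when a single gilt was left out, and the list had a median of -1.01, also with MCIDAS at the bound that the floor of 3 counts allows. FOXJ1, GMNC and TP73 had rpFSH means of 0.0574, 0.0131 and 0.0612 FPKM, and MCIDAS a count of 0 in these gilts. These 4 genes passed the filter of 0.1 FPKM only through the control group, so their calls describe that group's high values. With filterByExpr 3 regulators were called lower, and 1 at a mean FPKM of at least 1. Without control replicates 2 and 5, 0 were called lower, and the median was -0.06 over the 11 regulators other than MCIDAS; limma-voom with sample weights also called 0 lower. FOXJ1, the forkhead factor that switches on motile cilium genes, measured 0.0618, 5.82, 0.0421, 0.123 and 14.1 FPKM in control replicates 1 to 5, and 0.0001, 0.0488, 0.212, 0.0262 and 0.0001 FPKM in rpFSH replicates 1 to 5, where 0.0001 stands for a count of 0. FOXJ1 had a log2 fold change of -6.13 ± 1.99 (SE, edgeR), and -0.35 without control replicates 2 and 5. MCIDAS, a coregulator at the start of the multiciliated programme, had counts above 0 in 2 gilts, with 0.493 and 0.889 FPKM in control replicates 2 and 5. Log2 fold changes of the others were -3.11 for MYB, -5.35 for GMNC and -3.81 for TP73 in edgeR. With these 2 gilts left out they were -0.97, -0.13 and 1.43 in edgeR, and TP73 was called higher.

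Among the other genes of the motile axoneme, such as radial spokes, tektins and central apparatus proteins, 30 of 44 were called lower and 0 higher, with a median of -2.49 (also with TEKT4, at a count of 0 in all rpFSH gilts, at its bound), and control replicates 2 and 5 were the 2 highest gilts for 42 of the 44. Leaving out a single gilt gave between 19 and 35 called lower, limma on log2(FPKM + 1) gave 5 and on log2(FPKM + 0.1) 13, limma-voom with sample weights gave 2, and edgeR with the replicate number as a block gave 9. With filterByExpr 26 were called lower, and 10 at a mean FPKM of at least 1. Some called genes passed the filter of 0.1 FPKM only through the control group, so their calls describe that group's high values. Examples by rpFSH mean are RSPH1 (0.0299 FPKM), DRC7 (0.0352), CFAP65 (0.0318) and CFAP161 (0.0167). The called genes with the smallest P were LRRC46, CFAP161 and CFAP52. LRRC46 was at 3.36 and 5.95 FPKM in control replicates 2 and 5 and between 0.246 and 0.279 FPKM in the other controls. In the rpFSH gilts it was between 0.137 and 0.163 FPKM, so that its groups did not overlap. Its log2 fold change was -3.70 ± 0.98 (SE, edgeR), and -0.72 and not called without these 2 controls. CFAP161 and CFAP52 had log2 fold changes of -5.96 and -2.46 in edgeR, and -2.30 and -0.89 without these 2 gilts. There the median was -0.18 over the 43 genes other than TEKT4, and 0 of the 44 genes were called lower and 1, CFAP100, was called higher (edgeR, log2 fold change 1.15). The transport genes of the primary cilium, which cells without motile cilia also use, had a median of -0.12, and 0 of 30 were called in either direction. With 2.50 and 1.09% of all tested loci called, a count of 0 in 30 sets this list little apart. KIF17 was called higher without control replicates 2 and 5 (edgeR, log2 fold change 1.51, against -1.73 with all gilts). The summed level of the list lay between 102 and 131 FPKM in all gilts.

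**Figure D4:**
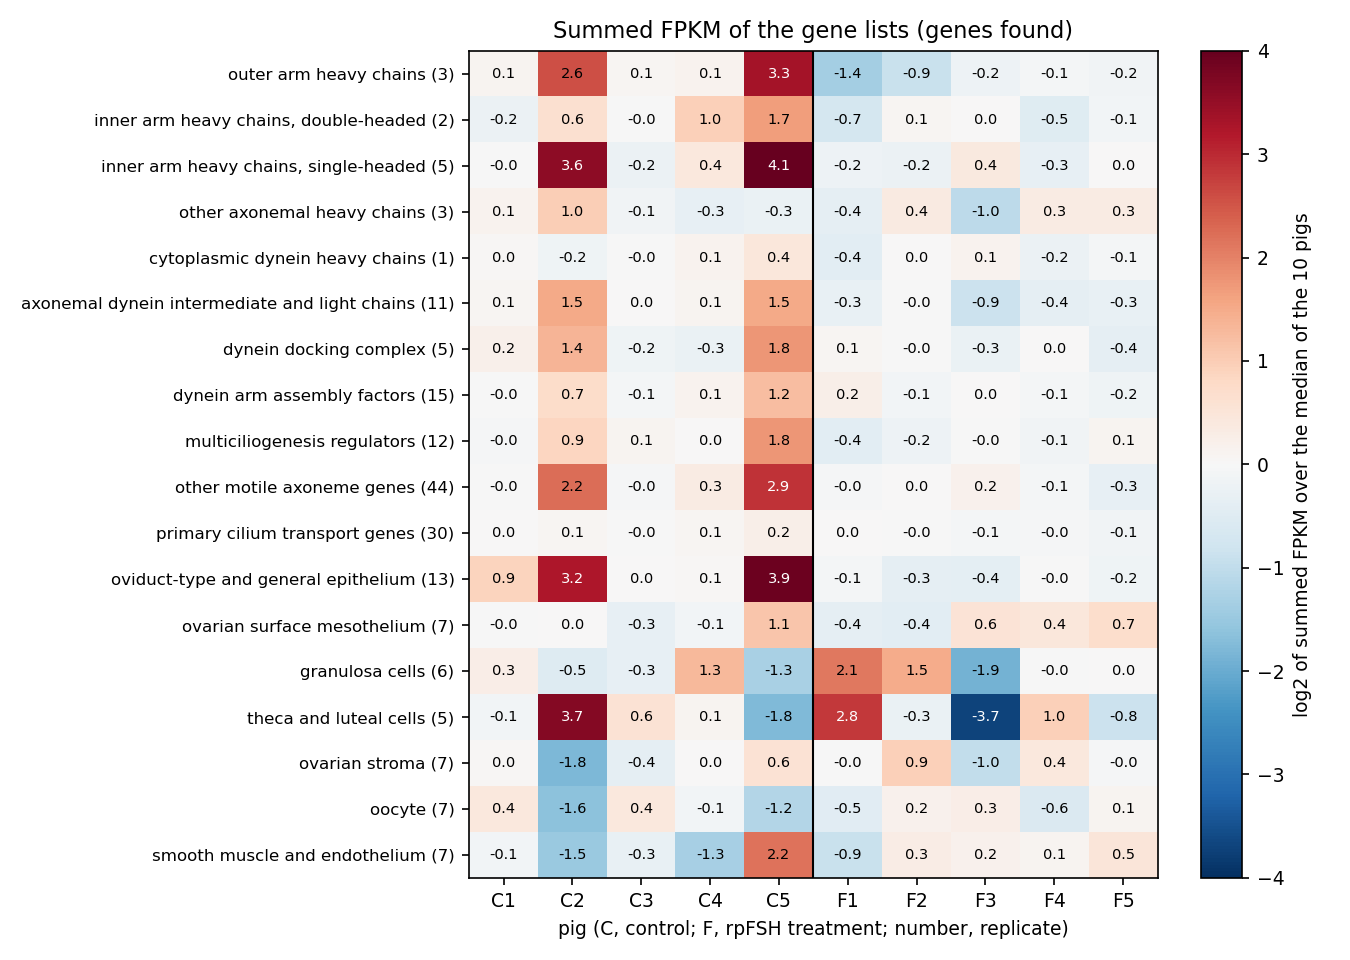
Summed FPKM of each gene list in each gilt (C, control; F, rpFSH treatment), as the log2 ratio to the median of the 10 gilts, with the number of genes found in parentheses. Control replicates 2 and 5 are high for the outer arm and single-headed inner arm heavy chains and for the intermediate and light chain, docking, motile axoneme and epithelium lists, and primary cilium transport genes lie near 0 in all gilts.

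Most marker genes of epithelium were highest in the same 2 gilts. Of the 17 genes listed for oviduct-type and general epithelium 13 were found, 11 of them with control replicates 2 and 5 as the 2 highest gilts, and 10 of 12 tested were called lower and 0 higher, with a median of -2.66. Leaving out a single gilt gave between 4 (without rpFSH replicate 1) and 12 called lower, limma-voom with sample weights gave 1, and the median without control replicates 2 and 5 was 0.17. Their summed level was 20.3, 103, 11.2, 11.4 and 166 FPKM in control replicates 1 to 5, and 10.4, 8.66, 8.47, 10.8 and 9.78 FPKM in rpFSH replicates 1 to 5. By mean FPKM over the 10 gilts the most abundant of them was OVGP1, while MAL2 had the higher median (3.59 against 2.63 FPKM). OVGP1, the oviductal glycoprotein, was at 2.5, 20.6, 2.11, 2.84 and 63.6 FPKM in control replicates 1 to 5 and between 1.93 and 3.12 FPKM in the rpFSH gilts. Its log2 fold change was -2.91 ± 0.95 (SE, edgeR), and 0.02 without control replicates 2 and 5. EPCAM, an adhesion protein of epithelial cells, was at 4.0 and 2.21 FPKM in control replicates 2 and 5 and at most at 0.566 FPKM elsewhere (edgeR, log2 fold change -2.66 ± 1.02 SE; 0.14 without them), and WFDC2 was at 29.7 and 25.1 FPKM there and at most at 0.941 FPKM elsewhere (edgeR, log2 fold change -4.61 ± 1.36 SE; -0.18 without them). PAX8 was not matched to a locus. KRT18 and ELF3 each had a count of 0 in 1 gilt, and no other gene of the list had one. With rpFSH means of 0.0803 and 0.045 FPKM, KRT18 and ELF3 passed the filter of 0.1 FPKM only through the control group. MAL2 was the gene of the list with the smallest P (edgeR, log2 fold change -1.94 ± 0.48 SE) and the one called without control replicates 2 and 5 as well (-1.69). It measured 10.9, 14.0, 6.35, 3.93 and 5.23 FPKM in control replicates 1 to 5. In rpFSH replicates 1 to 5 it measured 3.24, 1.84, 0.678, 2.97 and 1.69 FPKM, so that its groups did not overlap.

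For motile ciliated epithelium 4 of 5 listed markers were found, and FOXJ1, RSPH1 and TEKT1 were called lower, while TPPP3 was not; none of the 4 was called without control replicates 2 and 5. Their summed level was 1.88, 12.1, 1.49, 2.31 and 29.7 FPKM in control replicates 1 to 5, and 2.65, 2.15, 1.91, 1.84 and 1.19 FPKM in rpFSH replicates 1 to 5. TPPP3 was the most abundant in most gilts, at 1.09 FPKM or more in each. A count of 0 was seen for FOXJ1 in 2 gilts, for RSPH1 in 1 and for TEKT1 in 1, all of the rpFSH treatment group. The part of these epithelial and ciliated cell markers in the lower heavy chain levels was not tested.

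Lists of other cell types varied between gilts, and within most of them genes differed in direction. Among theca and luteal genes CYP11A1 led by mean FPKM, while INSL3 had the highest median (51.9 against 22.4 FPKM for CYP11A1). These genes summed to 167, 2300, 266, 193 and 52.8 FPKM in control replicates 1 to 5, and to 1270, 148, 13.8, 347 and 100 FPKM in rpFSH replicates 1 to 5, so that the sum was high in control replicate 2 and low in control replicate 5. In control replicate 2 CYP11A1 and STAR made up most of it, at 1760 and 532 FPKM, while INSL3 was at its lowest there, at 0.351 FPKM. Smooth muscle and endothelium genes, led by ACTA2, were highest in control replicate 5, at 1250 FPKM, and lowest in control replicate 2, at 101 FPKM, where the endothelium gene CDH5 was at its highest, at 11.9 FPKM. Granulosa cell genes summed to 28.8 and 16.8 FPKM in control replicates 2 and 5, against 11.2 to 180 FPKM in the other gilts, but in control replicate 2 NR5A2 alone gave 23.9 FPKM, and each of the other 5 genes was at its lowest of the 10 gilts. Ovarian surface mesothelium genes, led by LHX9, summed to 8.42 and 18.0 FPKM in these controls and to between 6.15 and 13.5 FPKM in the others. Of the 4 tested mesothelium genes, UPK3B (1.27 and 3.59 FPKM) and UPK1B (2.52 and 7.14 FPKM) were highest in control replicates 2 and 5, like most heavy chains, while LHX9 was lowest there (1.28 and 1.27 FPKM). Of the tested genes, 0 of 4 mesothelium, 0 of 6 granulosa, 0 of 5 theca and luteal, 0 of 7 oocyte and 0 of 7 smooth muscle and endothelium genes were called in either direction with all gilts. With 2.50% of all tested loci called lower and 1.09% higher, these counts of 0 set the lists little apart. Without control replicates 2 and 5, STAR of the theca and luteal genes and DES of the smooth muscle genes were called higher (edgeR, log2 fold changes 4.98 and 2.35, against 0.06 and -1.66 with all gilts). Oocyte genes, led by GDF9, had their lowest sums in control replicates 2 and 5, at 5.28 and 7.33 FPKM, against at most 22.1 FPKM in the other gilts, although DDX4 was highest in control replicate 2, at 1.02 FPKM. KLK11, a mesothelium marker, had a count of 0 in all gilts. Ovarian stroma genes, led by COL1A1, summed to 196 and 1030 FPKM in control replicates 2 and 5 and to between 349 and 1320 FPKM in the others, and 1 of 7 was called lower, LUM, with 29.0 FPKM in control replicate 5 (edgeR, log2 fold change -1.59 ± 0.55 SE; -0.69 and not called without control replicates 2 and 5). The found granulosa, theca, stroma and oocyte genes had counts above 0 in every gilt, as the ovary label implies, except for FIGLA, which had a count of 0 in 5 gilts. The part of these lists in the heavy chain levels was not tested.

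Outside the family, the 10 named protein-coding genes whose profile over the 10 gilts was most like the mean profile of the 8 members were RSPH4A, CFAP221, ILDR1, NECTIN4, LGR5, CFAP161, CCDC190, LRRC46, TTLL9 and TFCP2L1. Likeness was the root mean square distance between centred log2 (CPM + 0.5) values, and it ran from 0.21 for RSPH4A to 0.33 for TFCP2L1, with a median of 1.34 over 12334 genes. The 10 heavy chain loci themselves lay between 0.39 (DNAH1) and 0.97 (DNAH10) from that mean profile. They were not picked by distance, whereas the 10 genes are the nearest of 12334, so the 2 ranges cannot be compared. Of the 10 genes 4 were on the motile axoneme list, RSPH4A, CFAP221, CFAP161 and LRRC46, and 6 were on no list. CFAP221, NECTIN4, LGR5, CFAP161, CCDC190 and TTLL9 passed the filter of 0.1 FPKM only through the control group. Their likeness therefore describes that group's high values. The 0.5 added to the CPM also narrows differences among low values, and CFAP161 ranked here with a log2 fold change of -5.96 (edgeR). RSPH4A, a radial spoke head protein, measured 0.462, 3.83, 0.433, 0.58 and 6.02 FPKM in control replicates 1 to 5, and 0.264, 0.416, 0.621, 0.294 and 0.383 FPKM in rpFSH replicates 1 to 5. ILDR1 was at 1.79 and 2.04 FPKM in control replicates 2 and 5 and at most at 0.194 FPKM in the other gilts.

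**Figure D5:**
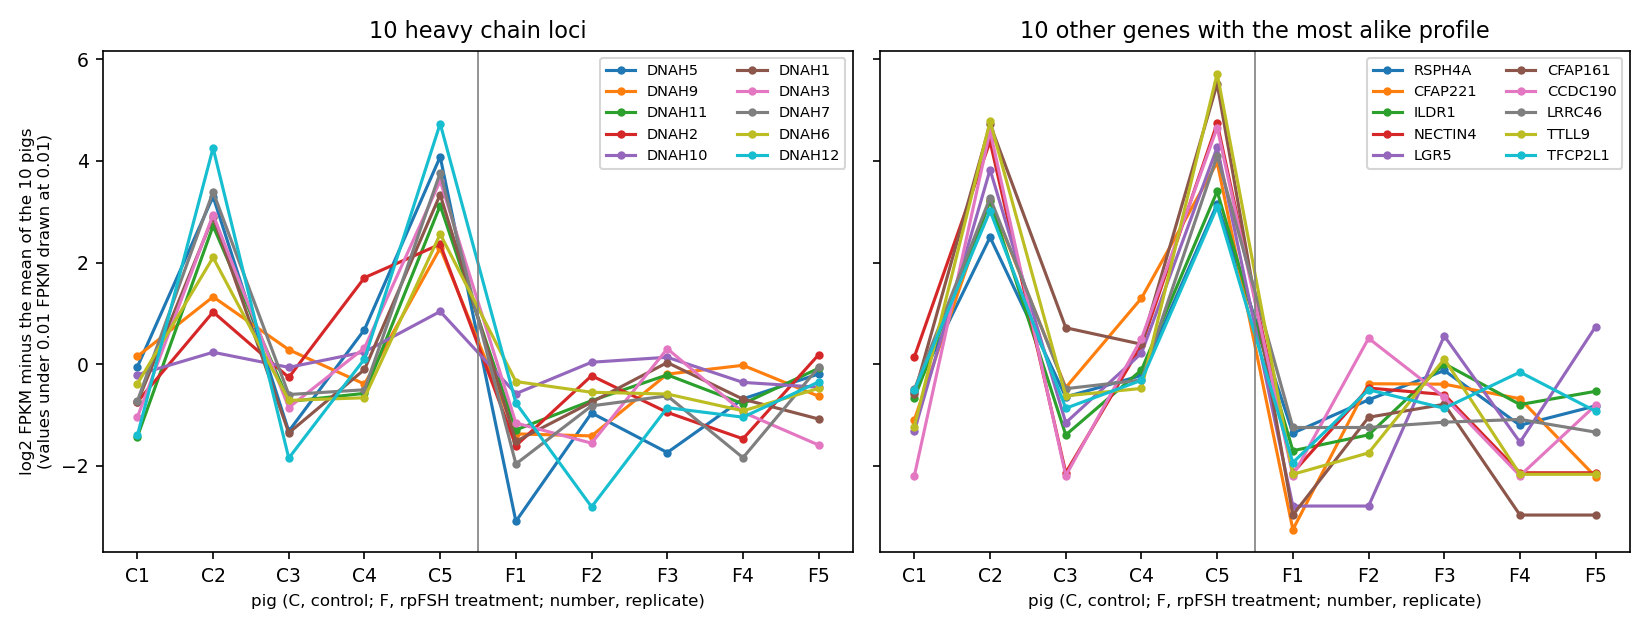
Log2 FPKM minus the mean of the 10 gilts for the 10 heavy chain loci (left) and the 10 most alike genes (right), with lines that only join the points of a gene and values under 0.01 FPKM drawn at 0.01. Both panels peak at control replicates 2 and 5, and DNAH10 is the flattest profile on the left.

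The 10 loci lay on 7 chromosomes and are no cluster. DNAH2 and DNAH9 were 2.96 Mb apart on chromosome 12, DNAH1 and DNAH12 were 4.6 Mb apart on chromosome 13, and DNAH3 and DNAH6 were 34.7 Mb apart on chromosome 3. Inside the spans of DNAH2, DNAH9, DNAH10, DNAH11 and DNAH12 lay 12 unannotated loci, of which 8 were assigned to the strand opposite to the heavy chain, 4 to no strand and 0 to the same strand. Of 11 tested, 9 were called lower and 0 higher, with a median log2 fold change of -1.86. Without control replicates 2 and 5, 2 of 11 were called lower, MSTRG.10643 in DNAH10 and MSTRG.7114 in DNAH9. The median there was -0.66 over the 10 loci other than MSTRG.8037 in DNAH12. MSTRG.8037 had a count of 0 in control replicates 1, 3 and 4. The largest was MSTRG.7118 inside DNAH9, on the minus strand at chr12:56312403-56317112, with counts of 164, 571, 140, 188 and 744 in control replicates 1 to 5 and 84, 91, 134, 203 and 134 in rpFSH replicates 1 to 5. Its log2 fold change was -1.43 (edgeR), and -0.31 without control replicates 2 and 5. The largest inside the other spans were MSTRG.35026 in DNAH11 with 705 counts in all, MSTRG.7056 in DNAH2 with 297, MSTRG.10643 in DNAH10 with 229 and MSTRG.8037 in DNAH12 with 190. The methods describe a library with a marked second strand, but whether the counting used it is not stated, so how far reads of these loci were kept apart from those of the heavy chain around them was not tested. Protein-coding loci also overlapped DNAH2 (KDM6B, on the same strand), DNAH9 (ZNF18, on the opposite strand), DNAH11 (CDCA7L, on the opposite strand) and DNAH12 (1 locus on each strand), and how reads in these overlaps were counted is not stated.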

How the data were processed

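Ovary RNA of 10 gilts was analysed, 5 per group as labelled. The authors deposited FPKM values and whole-number counts per locus. They trimmed reads with Cutadapt, mapped them to Sscrofa11.1 and estimated FPKM with StringTie and Ballgown; how the counts were derived is not stated. The submitters' notes list HISAT2 2.0, StringTie 1.3.0 and Bowtie 0.12.2. The methods describe rRNA removal on a HiSeq instrument, the labels poly(A) selection on a NovaSeq instrument.

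The 36339 of 43499 loci whose mean FPKM was 0.1 or more were tested on the counts by edgeR 4.0.16 (quasi-likelihood, TMM factors, two-sided) in R 4.3.3, in place of the authors' Ballgown test on FPKM, with the limits of the study's methods. The filter used the mean over both groups, so that a gene could pass it through the control group alone. Called genes with an rpFSH mean under 0.1 FPKM included DNAH12 (0.0988 FPKM), NME9, CALAXIN, DAW1, DNAAF11, DNAAF6, KRT18 and ELF3. Benjamini-Hochberg adjustment covered all tested loci. Standard errors were taken from the fold change and its F statistic. DESeq2 1.42.0 and limma 3.58.1 were alternatives, as were other normalizations, filters, a replicate block and leaving out gilts. The alternatives for the gene lists and the order by CPM were chosen after seeing the data. Summaries used Python 3.11.15, numpy 2.4.6, pandas 2.3.3 and matplotlib 3.10.9. Calculations were tested on simulated data with known changes.

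Members and lists were chosen with earlier results of these data known. Named genes are the members, called genes of the dynein lists, the 3 called genes with the smallest P of each other list, FOXJ1, OVGP1, PAX8, EPCAM and DYNC2H1, the 10 most alike genes and, per span, the unannotated locus with the most counts. TP73, MCIDAS, E2F4, KIF17, STAR, DES, INSL3, CDH5, NR5A2, UPK3B, UPK1B, DDX4, the most abundant gene of other cell type lists, MSTRG.7114, CFAP100, TEKT4, RSPH1, TEKT1, TPPP3, KRT18, ELF3, KLK11 and FIGLA were named after their values were seen. Symbols were matched by name and then by gene identifier. No 2 gilts of a group had counts equal within sampling noise (chi-square per degree of freedom of 99.8 or more). No sequence of the members was analysed here.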

Additional observations from a re-analysis of the deposited data

Results flagged for a closer look

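In 113 groups of 5 gilts, for the named genes and the summed lists, 20 had a gilt far from the others of its group. The limit would set apart about 1 in 20 groups of independent values. These groups share gilts, and many of the genes were named after their values were seen, so the count cannot be compared with that rate. The rule looks at 1 gilt, so that 2 high gilts, such as control replicates 2 and 5, can hide each other. Among the heavy chains, DNAH10 reached 7.4 FPKM in control replicate 5 (next highest 4.26) and DNAH3 0.574 FPKM in rpFSH replicate 3 (next highest 0.241). DNAH8 was at 0.414 FPKM in control replicate 2, DNAH17 at 0.244 FPKM in control replicate 1, and DNAH14 at 0.0678 FPKM in control replicate 3 and 0.128 FPKM in rpFSH replicate 5.

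Control replicate 5 also stood apart for GMNC (2.19 FPKM), TP73 (3.39 FPKM) and LUM (29.0 FPKM), for the summed mesothelium genes (18.0 FPKM) and for the summed smooth muscle and endothelium genes (1250 FPKM). Control replicate 2 stood apart for the summed theca and luteal genes (2300 FPKM). In the rpFSH treatment group, replicate 3 was highest for DAW1 (0.12 FPKM), FOXJ1 (0.212 FPKM), GMNC (0.046 FPKM) and TTLL9 (0.0483 FPKM). Replicate 2 was highest for WDR63 (1.82 FPKM) and EFCAB1 (0.0674 FPKM), replicate 4 for EPCAM (0.566 FPKM), and replicate 1 for the summed theca and luteal genes (1270 FPKM).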

How the results depend on the processing

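The number of the 8 members called lower was 7 under RLE factors, upper-quartile factors, total counts, no filter, filterByExpr, protein-coding loci only and DESeq2, and 5 of 6 tested members at a mean FPKM of at least 1. It was 3 with limma on log2(FPKM + 1) and 3 on log2(FPKM + 0.1) (P from limma, fold from the ratio of group mean FPKM, which stayed past the limit for the members that lost their call), 0 with limma-voom with sample weights, and 0 without control replicates 2 and 5. Leaving out 1 gilt gave 6 to 7. The number of all loci called lower was 908, against 214 at a mean FPKM of at least 1 and 392 among protein-coding loci only (fewer loci tested), 434 and 501 with limma at pseudocounts of 1 and 0.1, 503 with limma-voom with sample weights and 469 without control replicates 2 and 5. Leaving out 1 gilt gave 649 to 1093. The lower share of all calls was 69.6%, and 82.9% among protein-coding loci only; it was 50.5% with sample weights and 41.2% without the 2 controls.

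Without control replicates 2 and 5 the log2 fold change of DNAH11 and DNAH6 changed sign, at 0.37 and 0.08, and that of DNAH1 was 0.00. Of 227 values of the 10 loci under alternatives, 187 kept direction and side of the limits, 37 kept direction only and 3, those just named, did neither. Leaving out 1 gilt gave log2 fold changes from -3.94 to -2.77 for DNAH5, -1.90 to -1.11 for DNAH9, -2.62 to -1.64 for DNAH11, -2.17 to -1.37 for DNAH2, -0.61 to -0.26 for DNAH10, -2.97 to -1.98 for DNAH1, -3.43 to -2.16 for DNAH3, -3.58 to -2.57 for DNAH7, -4.53 to -3.40 for DNAH12 and -2.10 to -1.24 for DNAH6. Except where fewer loci or gilts entered the fit, the cause of these shifts was not tested.

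Leaving out 1 gilt also moved the number called lower to 4 to 6 intermediate and light chains, 1 to 2 docking genes and 0 to 1 stroma genes. Under limma-voom with sample weights the numbers called lower were 1 intermediate or light chain, 0 docking genes and 0 assembly factors.

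No pairing of the gilts by replicate number was seen. Same-numbered gilts had correlations of their deviations from the group means between -0.381 and 0.0543. Of 5 controls, 0 were most like the gilt of their own number. With so few gilts this cannot exclude a pairing. With the replicate block 4 members and 456 loci were called lower.

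Low counts limit the weakest loci. DNAH12 had as few as 37 counts in a gilt, and levels per length rest on locus lengths that were not checked against transcripts. Neither promoter nor protein tables were used here, so motif and protein comparisons were not run.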
